A study of Homo sapiens with 6 samples.

Results

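The genes described here are cytokine subunits of the interleukin 6 (IL-6) family, their receptors, the transcription factor STAT3 and its feedback inhibitor SOCS3, read from RNA-seq libraries of HepG2, a line established from a human liver tumour. The set holds 10 of the 60483 gene identifiers in the count files: the cytokine genes IL6, IL11, LIF, EBI3 and CLCF1, the receptor genes IL6R, IL6ST and IL11RA, and STAT3 and SOCS3. Each symbol matched 1 Ensembl identifier. They were chosen by pathway and on their values in the FTO siRNA against control siRNA contrast itself, so their own differences are given as a description without a test. The cells, at passages 16 to 19, were transfected with a control siRNA or with an siRNA against FTO, a demethylase of N6-methyladenosine in RNA, and each group held 3 libraries numbered 1 to 3. All libraries came from 1 cell line, and nothing in the labels says that those of a group came from separate cultures, so p-values cover only the variation among these samples, and that variation may be technical.

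IL-6 family cytokines act through receptor complexes that share the signal transducer gp130, the product of IL6ST. IL6R and IL11RA bind their cytokine and bring it to gp130, whereas LIF uses the LIF receptor together with gp130. Receptor-bound Janus kinases then phosphorylate STAT3, which enters the nucleus and induces acute phase genes in hepatocytes as well as SOCS3, whose product binds gp130 and the kinases and stops the signal. EBI3 is the soluble subunit that pairs with the products of IL27 or IL12A.

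Total counts lay between 15713279 and 18390953 per library, and 3 counts, the floor used here, correspond to 0.163 to 0.191 CPM (counts scaled to a common library size, gene values with TMM factors). FTO itself was measured at 40.8, 38.0 and 38.8 CPM under control siRNA, whereas the knockdown libraries had 11.2, 14.5 and 5.21 CPM, lower in each library labelled FTO siRNA than in every control. FTO siRNA 3 stood apart from the other FTO siRNA libraries: the chi-square of its counts over the degrees of freedom was 118 against FTO siRNA 1 and 82.6 against FTO siRNA 2, where FTO siRNA 1 and 2 gave 20.4 and pairs of controls 8.45 to 15.4. Several of the results below are therefore also given without it. The liver origin was visible in the hepatocyte markers: AFP, the fetal albumin homologue, lay between 7165 and 12997 CPM over the 6 libraries, and HNF4A between 300.3 and 378 CPM.

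RefSeq windows of the 250 bases before the transcription start (GRCh38.p14, a newer build than the one the submitters name) were found for 8 of the 10 genes, with 10 windows among them; LIF and CLCF1 had no entry. The windows of IL6, IL11 and EBI3 are shown because these cytokine genes were far higher in the FTO siRNA libraries and each holds a match to a site of an inflammatory transcription factor family. They are written 5′ to 3′ on the transcribed strand, ending at the base before the start, with matches in capitals. The window of IL6 lies at chr7:22726950-22727199 on the plus strand, that of IL11 at chr19:55370464-55370713 on the minus strand and that of EBI3 at chr19:4229273-4229522 on the plus strand.
IL6: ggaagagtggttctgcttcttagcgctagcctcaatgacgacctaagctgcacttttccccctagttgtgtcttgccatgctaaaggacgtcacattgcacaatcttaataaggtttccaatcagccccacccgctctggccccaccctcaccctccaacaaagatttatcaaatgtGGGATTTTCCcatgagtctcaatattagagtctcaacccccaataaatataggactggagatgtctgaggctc
IL11: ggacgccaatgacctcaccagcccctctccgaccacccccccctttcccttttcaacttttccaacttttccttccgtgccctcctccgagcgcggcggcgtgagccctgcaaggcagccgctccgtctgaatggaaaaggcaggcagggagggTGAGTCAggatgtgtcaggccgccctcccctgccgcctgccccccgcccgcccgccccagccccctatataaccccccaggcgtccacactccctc
EBI3: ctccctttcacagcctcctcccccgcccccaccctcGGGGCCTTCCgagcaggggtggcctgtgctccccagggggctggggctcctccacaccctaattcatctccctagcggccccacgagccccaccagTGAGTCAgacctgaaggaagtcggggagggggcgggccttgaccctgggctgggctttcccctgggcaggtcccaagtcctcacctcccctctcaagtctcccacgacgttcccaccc

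The capitals in IL6 mark a match to the kappaB consensus, bound by NF-kB, 73 to 64 bases before the start. Those in IL11 mark the AP-1 letters TGANTCA 96 to 90 bases before the start. EBI3 held both, the kappaB match at 214 to 205 bases and the AP-1 match at 118 to 112 bases. Both strands were searched, and no match overlapped another. Of 35116 RefSeq windows of this length, 6.88% held the kappaB consensus, 6.57% the AP-1 letters and 6.57% the STAT letters TTCNNNGAA. The other 7 windows, of IL6R, IL6ST, IL11RA, STAT3 and SOCS3 (2 windows each for IL11RA and SOCS3), held none of the 3 motifs, and the STAT letters occurred in none of the 10; this says only that they are not in these 250 bases. A match is a description of the sequence and not a shown binding site.

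The 5 cytokine genes were each higher in every FTO siRNA library than in any control. The ratio of mean CPM was 2.02 for CLCF1, 6.72 for IL6, 9.64 for LIF, 20.1 for IL11 and 22.8 for EBI3. IL6, the founding cytokine of the family and the main inducer of the hepatic acute phase response, had 3, 9 and 2 counts in the controls and 28, 24 and 50 in FTO siRNA 1, 2 and 3, or 0.19, 0.548 and 0.121 against 1.74, 1.48 and 2.55 CPM. Of the controls, 1 and 3 were at or under the floor of 3 counts, and the groups did not overlap. The fitted log2 fold change was 2.73 ± 0.50 (standard error), and 3.58 without control 2, its highest control.

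IL11, a cytokine of stromal and epithelial cells that signals through IL11RA, had CPM values of 0.317, 0.914 and 2.41 in the controls and 18.5, 13.7 and 41.03 in FTO siRNA 1, 2 and 3. The highest control lay below the lowest FTO siRNA library, and FTO siRNA 3 was 2.55 times the mean of the other FTO siRNA libraries. Its log2 fold change was 4.31 ± 0.63, or 3.68 without FTO siRNA 3 and 5.26 without control 3. LIF, named for inhibiting the growth of leukaemia cells, went from 1.39, 1.58 and 2.84 CPM to 12.5, 15.3 and 28.4 CPM, a log2 fold change of 3.26 ± 0.40 (2.80 without FTO siRNA 3). As for IL11, library 3 was the highest within each group.

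EBI3, first found in virus-transformed B cells, had 3, 5 and 6 counts in the controls and 121, 73 and 147 in FTO siRNA 1, 2 and 3. In CPM this was 0.19, 0.305 and 0.362 against 7.5, 4.51 and 7.51, and the groups did not overlap. The log2 fold change was 4.47 ± 0.39 and stayed between 4.23 and 4.65 with any 1 library left out. CLCF1, a cytokine that signals through the receptor of ciliary neurotrophic factor, was the 1 cytokine gene already well counted in controls, at 14.5, 12.3 and 15.8 CPM. It reached 33.4, 28.7 and 24 CPM in the FTO siRNA libraries, where FTO siRNA 3 was the lowest, and its log2 fold change was 1.01 ± 0.19. IL6 and EBI3 were below the 0.602 CPM that the filter on low counts requires in every control, so they entered the fit only through the libraries in which they were high.

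**Figure D1:**
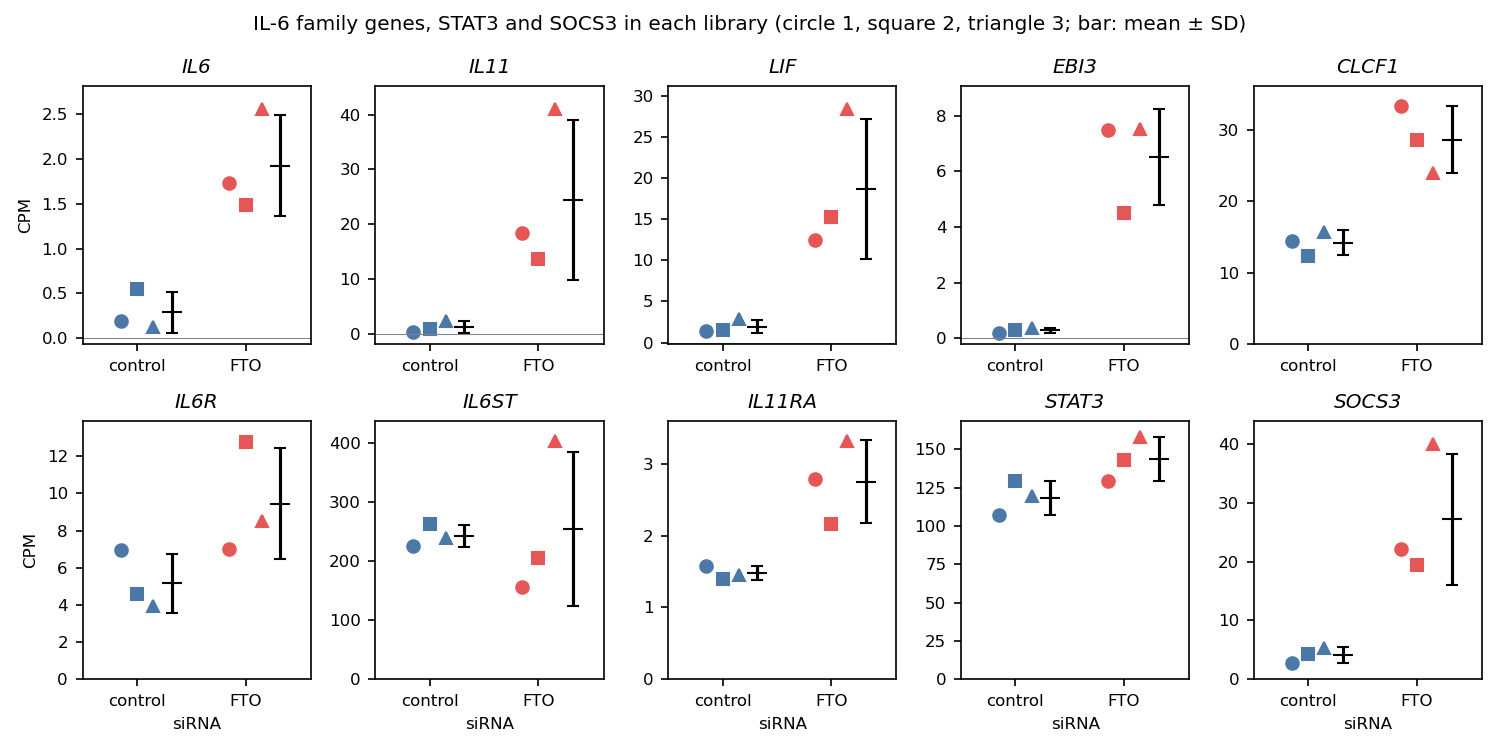
CPM of each of the 10 genes in each library (vertical axes differ), control siRNA in blue and FTO siRNA in red, with the mean ± SD of 3 libraries beside the points. For 9 genes, chosen on this contrast, the FTO siRNA libraries lie above all controls, as they do for 19.2% of all genes tested. The groups nearly meet for IL6R and STAT3. For IL6ST, FTO siRNA 3 (402 CPM) lies above and FTO siRNA 1 and 2 (156 and 205 CPM) below all controls.

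Per kilobase of exon, which allows levels to be compared between genes, the 5 cytokine transcripts summed to 8.06, 7.48 and 9.94 CPM per kilobase under control siRNA and to 33.6, 27.7 and 41.7 under FTO siRNA. CLCF1 made up 91.2%, 83.4% and 80.3% of that sum in the controls. In the FTO siRNA libraries its share was 50.3%, 52.4% and 29.1%, and the remainder was mostly IL11, LIF and EBI3. IL11 alone supplied 20.6%, 18.5% and 36.8% of the sum after FTO siRNA. IL6 stayed a small part in all libraries, between 0.587% and 3.55%.

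**Figure D2:**
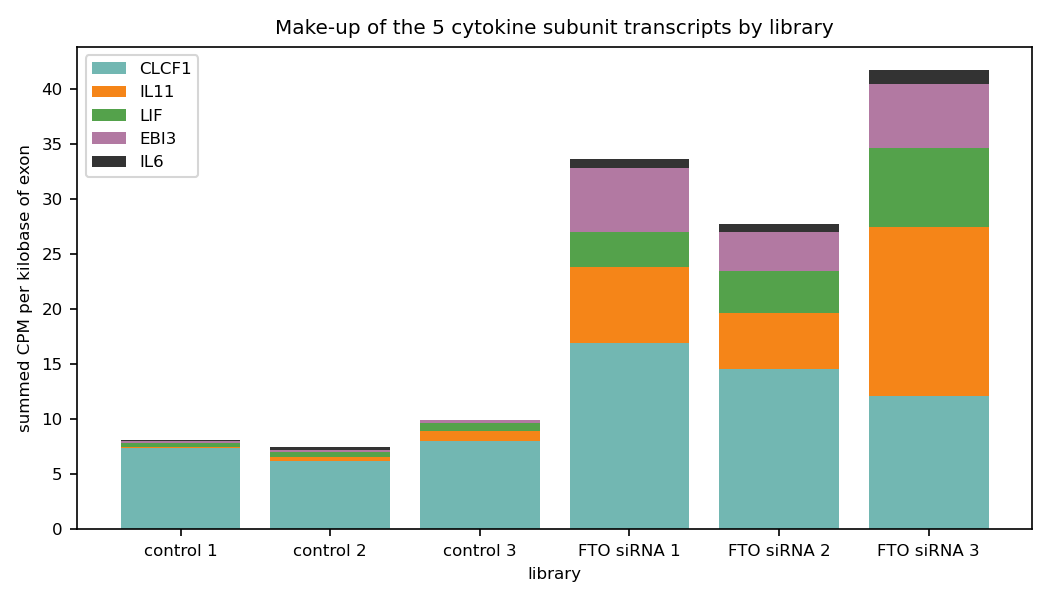
Summed level of the 5 cytokine subunit transcripts in each library, in CPM per kilobase of exon, divided by gene. The controls sum to 7.48 to 9.94 and consist mainly of CLCF1, while the FTO siRNA libraries sum to 27.7 to 41.7 with large shares of IL11, LIF and EBI3.

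The receptor genes differed less. IL6ST, which encodes gp130, was at 225, 262 and 238 CPM in the controls and at 156, 205 and 402 CPM in FTO siRNA 1, 2 and 3. FTO siRNA 1 and 2 were below every control and FTO siRNA 3 above every control, so that the SD grew from 18.7 to 130 CPM while the mean was 242 and 255 CPM. The log2 fold change was 0.08 ± 0.31 and turned to -0.44 without FTO siRNA 3. IL6R, the binding subunit for IL-6, was at 6.97, 4.57 and 3.92 CPM in the controls and at 7.0, 12.8 and 8.53 CPM after FTO siRNA. Control 1 and FTO siRNA 1 were nearly equal, and the log2 fold change was 0.87 ± 0.31. IL11RA, the binding subunit for IL-11, was at 1.58, 1.4 and 1.45 CPM against 2.79, 2.16 and 3.32 CPM, with no overlap and a log2 fold change of 0.90 ± 0.28 (0.71 without FTO siRNA 3). Of its exon bases, 7.82% are shared with GALT, a gene on the same strand with 834 and 970 counts in the 2 groups, which makes the counts of IL11RA uncertain.

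STAT3, the transcription factor that carries the signal to the nucleus, was abundant in both groups, at 107, 129 and 119 CPM in the controls and 129, 143 and 158 CPM in the FTO siRNA libraries. Control 2 and FTO siRNA 1 were almost the same (129.2 and 129.3 CPM), and the log2 fold change was 0.28 ± 0.15. SOCS3, the STAT3-induced inhibitor, had 43, 69 and 89 counts in the controls and 358, 315 and 784 in FTO siRNA 1, 2 and 3. That corresponds to 2.72, 4.2 and 5.37 against 22.2, 19.5 and 40.1 CPM, and every FTO siRNA library was above every control. The log2 fold change was 2.73 ± 0.35, and 2.31 without FTO siRNA 3. The ratio of SOCS3 to STAT3 per kilobase was 0.0821, 0.105 and 0.145 under control siRNA, in library order, against 0.553, 0.438 and 0.817 under FTO siRNA. The ratio of IL6ST to IL6R, 22.4, 39.8 and 42.1 in the controls and 15.5, 11.1 and 32.7 after FTO siRNA, overlapped between the groups.

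Of the 10 genes, 6 passed the threshold of the fit across all genes (edgeR's quasi-likelihood test, adjusted p under 0.05), all in the higher direction: the 5 cytokine genes and SOCS3. Over all 15025 genes tested the share was 11.4%, with 7.53% higher and 3.83% lower. The FTO siRNA libraries lay above all controls for 9 of the 10 genes and below them for 0; over all genes tested 19.2% lay above and 17.4% below, 36.5% together. Since the genes were chosen on this contrast, nothing is read from these counts. The count of 6 became 4 without control 1, where IL6 and CLCF1 dropped out, 5 without control 2 (no CLCF1), 5 without control 3 (no IL6) and 8 without FTO siRNA 3, where IL6R was added as higher and IL6ST as lower. FTO siRNA 3 was the highest of all libraries for 8 of the 10 genes, with CLCF1 and IL6R as the exceptions. It exceeded FTO siRNA 1 and 2 for the same 8 genes and, among all genes tested, for 42.4%. The share of all genes that were highest of all libraries there was not counted.

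Under control siRNA the order of levels per kilobase was led by IL6ST (26.0 ± 2.02 CPM per kilobase, SD, n = 3), STAT3 (13.4 ± 1.26) and CLCF1 (7.19 ± 0.885), whose ranges did not overlap with those of their neighbours. SOCS3 (1.5 ± 0.486), IL6R (0.799 ± 0.249), LIF (0.488 ± 0.198), IL11 (0.455 ± 0.405) and IL11RA (0.346 ± 0.0222) followed, each overlapping the next. EBI3 (0.222 ± 0.0683) and IL6 (0.138 ± 0.111) came last and overlapped each other. After FTO siRNA the same 3 genes had the highest means, at 27.4 ± 14.0, 16.3 ± 1.63 and 14.5 ± 2.39 CPM per kilobase, now with overlapping ranges. The range of CLCF1 also overlapped that of SOCS3, and in FTO siRNA 3 CLCF1 was below IL11 and SOCS3. SOCS3 (9.96 ± 4.09), IL11 (9.14 ± 5.46), EBI3 (5.07 ± 1.35) and LIF (4.71 ± 2.14) formed the middle, and the range of LIF did not reach that of IL6R (1.46 ± 0.464). IL6 (0.93 ± 0.271) and IL11RA (0.646 ± 0.136) were the lowest. With the longest transcript as length, 3 genes changed rank in the controls and 4 after FTO siRNA. In the controls LIF then came after IL11 and IL11RA. After FTO siRNA STAT3 (28.4) then came before IL6ST (28.1), and IL11 (10.7) before SOCS3 (9.96).

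**Figure D3:**
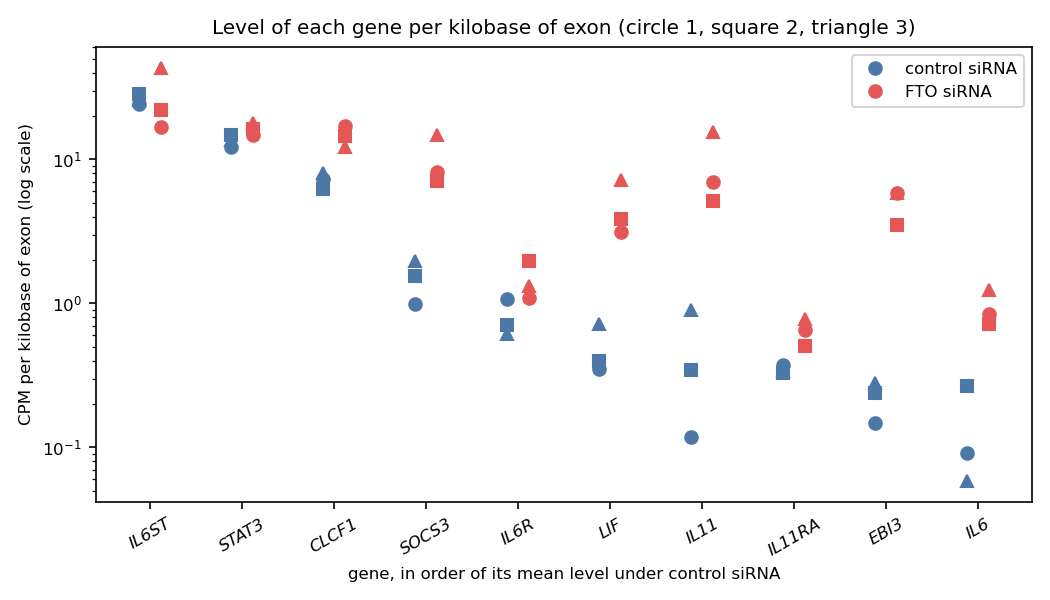
Level of each gene in each library in CPM per kilobase of exon on a log axis, in order of the control mean, control siRNA in blue and FTO siRNA in red. By mean, IL6ST, STAT3 and CLCF1 lead in both groups. In FTO siRNA 3, however, CLCF1 (12.1) lies below IL11 (15.4) and SOCS3 (14.7). IL11, LIF, EBI3 and SOCS3 move from between 0.119 and 1.97 in the controls to between 3.14 and 15.4 after FTO siRNA.

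The other genes of the pathway, picked by role, went in both directions, 20 with a log2 fold change above 0 and 17 below. Of 43 genes, 37 had enough counts to test; 4 rose (10.8%, against 7.53% of all genes tested), 0 fell and 33 did not pass, and the median log2 fold change was 0.01 (0.04 over all genes tested). At an unadjusted p under 0.05, 9 were higher and 7 lower, where all genes tested gave 16.4% and 11.5%. DESeq2 called 6 higher and 6 lower (9.85% and 6.85% of all genes) and limma-voom 4 and 0 (6.72% and 3.75%). With 1 library left out, the 4 calls fell to 0 without control 1, control 2 or FTO siRNA 1, where 1.51%, 1.84% and 4.86% of all genes tested were higher. They fell to 1 without control 3 (3.23%). Without FTO siRNA 3 there were 9 higher and 9 lower, against 15.9% and 14.1% of the 15290 genes tested then.

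Among the partners of the cytokine genes, IL12A, which encodes a partner of EBI3 and is named after its values were seen, had a log2 fold change of 1.41 ± 0.39 (edgeR adjusted p = 0.0543) without overlap between the groups. Among the alternatives, IL12A passed as higher only with DESeq2 (adjusted p = 0.0491) and without FTO siRNA 3 (edgeR adjusted p = 0.0499). In those fits 9.85% and 15.9% of all genes tested were higher. IL27, the other partner, had 2, 1 and 1 counts in the controls and 0, 1 and 5 after FTO siRNA, near or under the floor. OSM, a cytokine made by leukocytes, had 0 counts in 5 libraries and 1 in FTO siRNA 3, and IL31 had 0 in all 6, which allows up to 0.163 to 0.191 CPM.

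Of 6 tested receptor and sheddase genes, 1 rose (16.7%, against 7.53% of all genes tested). It was IL27RA, a receptor for IL-27, the cytokine that contains EBI3, which went from 4.44, 4.63 and 3.32 to 9.17, 7.54 and 9.61 CPM (log2 fold change 1.09 ± 0.22, edgeR adjusted p = 0.0189). The oncostatin M receptor gene OSMR was at 206 ± 29.2 CPM in the controls and 298 ± 49.7 CPM after FTO siRNA (n = 3 each; edgeR adjusted p = 0.0924). LIFR, the receptor that LIF uses with gp130, was at 104 ± 7.57 and 74.7 ± 16.7 CPM (edgeR adjusted p = 0.138). Neither passed, although their groups did not overlap. Both passed without FTO siRNA 3, OSMR as higher (edgeR adjusted p = 0.00916) and LIFR as lower (0.0375).

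None of the 13 tested kinases, STATs and adaptors passed in edgeR's test. At an unadjusted p under 0.05, 2 were higher and 3 lower (16.4% and 11.5% of all genes tested). DESeq2 called 1 higher and 3 lower (9.85% and 6.85% of all genes tested) and limma-voom 0. JAK1, the main kinase of gp130, was at 346 ± 37.1 and 445 ± 76.5 CPM (log2 fold change 0.36 ± 0.18, edgeR adjusted p = 0.223). TYK2, another gp130-associated kinase, was at 83.2 ± 3.8 and 78.3 ± 5.47 CPM (-0.09 ± 0.13, edgeR adjusted p = 0.706). JAK2, also a gp130-associated kinase and named after its values were seen, was at 5.2, 5.24 and 5.43 CPM in the controls and 3.04, 2.72 and 3.73 CPM after FTO siRNA, without overlap (-0.74 ± 0.22, edgeR adjusted p = 0.0669). It passed as lower with DESeq2 (adjusted p = 0.0388) and without FTO siRNA 3 (edgeR adjusted p = 0.0121). In the fit without FTO siRNA 3, 2 of the 13 passed as higher and 4 as lower, against 15.9% and 14.1% of all genes tested.

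Of 14 inhibitors, 2 rose (14.3%, against 7.53% of all genes tested) and 0 fell. Those that rose were SOCS1 and SOCS2, and the list also held SOCS4, SOCS5, SOCS6 and SOCS7. DESeq2 called 2 higher and 3 lower (SOCS5, SOCS7 and PIAS1), against 9.85% and 6.85% of all genes tested. Without FTO siRNA 3 edgeR's test called 3 higher and the same 3 lower, all 3 named after their values were seen. In that fit 15.9% of all genes tested passed as higher and 14.1% as lower. SOCS1, better known for interferon signalling, went from 2.22, 1.46 and 1.87 to 6.94, 3.64 and 4.55 CPM (log2 fold change 1.44 ± 0.32, edgeR adjusted p = 0.0249). SOCS2, a regulator of growth hormone signalling, went from 4.88, 6.21 and 12.4 to 16.9, 16.6 and 21.4 CPM (1.22 ± 0.33, edgeR adjusted p = 0.048). Both differences were smaller in size than the 2.73 ± 0.35 of SOCS3; the difference between the genes was not tested. For IL27RA the call was lost when any control or FTO siRNA 1 was left out, and with the replicate number as a block. The call of SOCS1 was lost when any control or FTO siRNA 1 was left out, that of SOCS2 without control 1, control 2, FTO siRNA 1 or FTO siRNA 2. SOCS2 also lost it with RLE factors, with no composition factors and with a filter of 1 CPM (highest edgeR adjusted p for either gene 0.184).

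**Figure D4:**
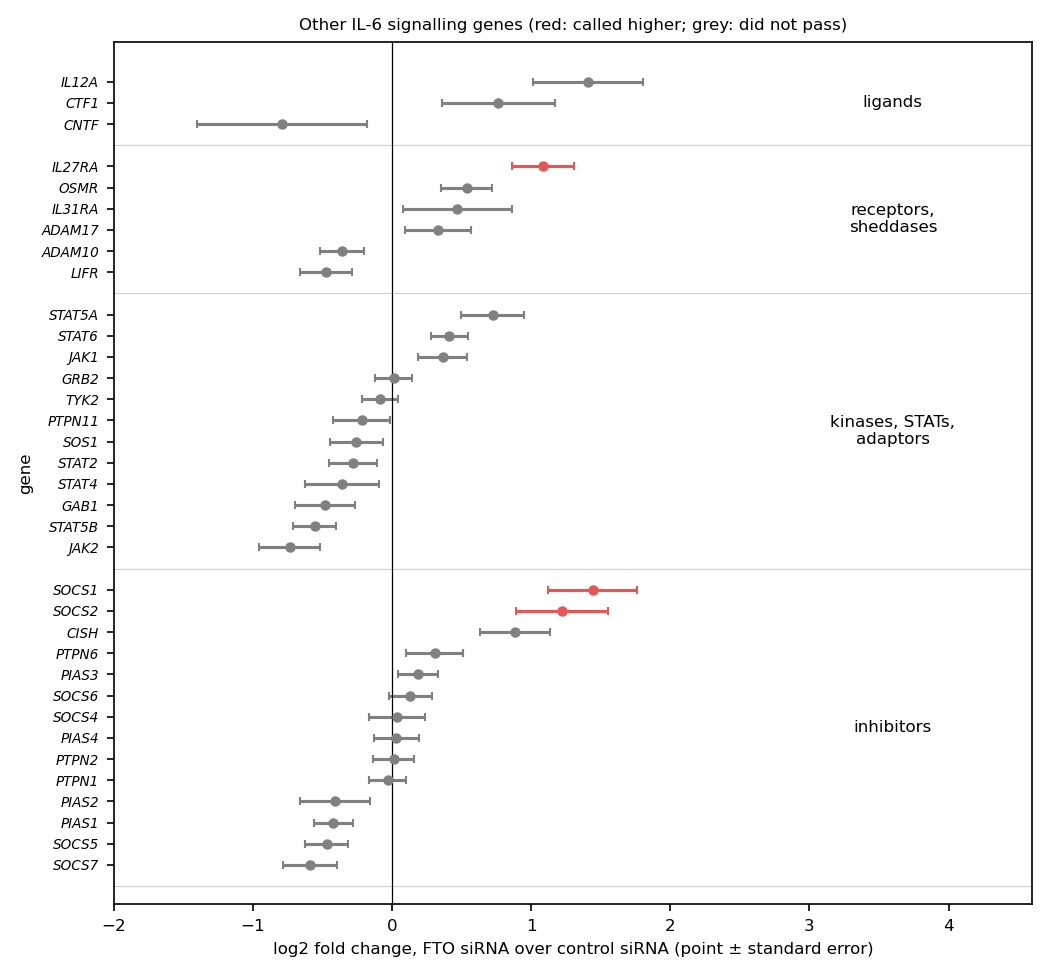
Log2 fold change, FTO siRNA over control siRNA, with its standard error for 35 of the 37 tested pathway genes outside the set of 10, grouped by role. IL27RA, SOCS1 and SOCS2, which passed, are in red, and the kinases, STATs and adaptors, in grey, lie between -0.74 and 0.72.

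Known STAT3 target genes, apart from SOCS3, were counted next. Whether STAT3 or the receptors acted on them in these cells was not tested. Of 20, 13 rose (65.0%, against 7.53% of all genes tested), 0 fell and 7 did not pass, with a median log2 fold change of 0.94. JUNB, FOS, CEBPB and TIMP1 were known to be higher in these data when the list was drawn up, and 9 of the other 16 rose. The smallest p-values belonged to CEBPD, a transcription factor of the acute phase response (22.2 ± 3.05 to 58.6 ± 10.2 CPM, edgeR adjusted p = 0.00425), and FOS, an AP-1 subunit (1.9 ± 0.624 to 8.06 ± 1.04 CPM, edgeR adjusted p = 0.00471).

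TIMP1, a protease inhibitor, CEBPB, which activates acute phase promoters, JUNB, another AP-1 subunit, and ICAM1, an adhesion molecule, followed, with log2 fold changes of 2.15 ± 0.31, 1.24 ± 0.18, 2.29 ± 0.36 and 1.48 ± 0.25. Without FTO siRNA 3 these were 2.35, 1.35, 1.68 and 1.10. ICAM1 was at 191, 196 and 196 CPM in the controls and 427, 422 and 772 CPM in FTO siRNA 1, 2 and 3. As for IL11, LIF and SOCS3, FTO siRNA 3 was its highest library, while TIMP1 and CEBPB were lowest there among the FTO siRNA libraries. The 13 calls fell to 4 without control 1, 5 without control 2 and 8 without control 3. In those fits 1.51%, 1.84% and 3.23% of all genes tested were higher. Without FTO siRNA 1, 2 and 3 there were 11, 11 and 13 calls (4.86%, 5.69% and 15.9% of all genes tested). FOS, CEBPB, CEBPD and TIMP1 kept their calls under all 14 alternatives. JUNB lost its call without control 1 and ICAM1 without control 1 or control 2.

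The acute phase proteins, the secreted liver products that IL-6 is best known to induce, went in both directions, 11 with a log2 fold change above 0 and 5 below. None of the 16 tested of 20 passed in edgeR's test, and the median log2 fold change was 0.30. At an unadjusted p under 0.05, 6 were higher and 0 lower (16.4% and 11.5% of all genes tested). DESeq2 called 3 higher (9.85% of all genes tested) and limma-voom 0. CRP, the classic marker of IL-6 activity, had 3, 2 and 8 counts in the controls and 1, 4 and 5 after FTO siRNA and was too low to test. FGB, a fibrinogen chain, was at 1595, 2286 and 1448 CPM against 1371, 997 and 1534 CPM (log2 fold change -0.45 ± 0.26, edgeR adjusted p = 0.294). HP, haptoglobin, was at 17.2, 17.2 and 6.04 against 9.79, 5.99 and 7.05 CPM (-0.82 ± 0.39, edgeR adjusted p = 0.208). Without control 3, its lowest control, HP passed as lower (log2 fold change -1.20, edgeR adjusted p = 0.0429).

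SAA1, serum amyloid A, was at 2.72, 9.14 and 3.08 CPM in the controls and 31.2, 20 and 8.02 CPM in FTO siRNA 1, 2 and 3 (log2 fold change 1.98 ± 0.57, edgeR adjusted p = 0.06). It is nearly identical to SAA2, so its counts are uncertain. With no filter on low counts SAA1, SAA2 and SERPINA3 passed in edgeR's test (adjusted p = 0.0326, 0.0477 and 0.0427), and SAA2 also without control 2 (0.0361). FTO siRNA 3 divided this list: CP, which carries copper, was at 77.6 CPM there against 8.74 and 7.6 CPM in FTO siRNA 1 and 2, and LBP, which binds bacterial lipopolysaccharide, at 20.4 against 3.47 and 1.61 CPM, both named after their values were seen. Without FTO siRNA 3, 2 genes of the list passed as higher (SAA1 and SAA2) and 4 as lower (FGA, FGB, FGG and A2M), with edgeR adjusted p-values between 0.00366 and 0.0498. Of all genes tested in that fit, 15.9% passed as higher and 14.1% as lower. SERPINA3 was listed at 0, 0 and 1 counts in the controls and at 4, 4 and 36 after FTO siRNA.

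**Figure D5:**
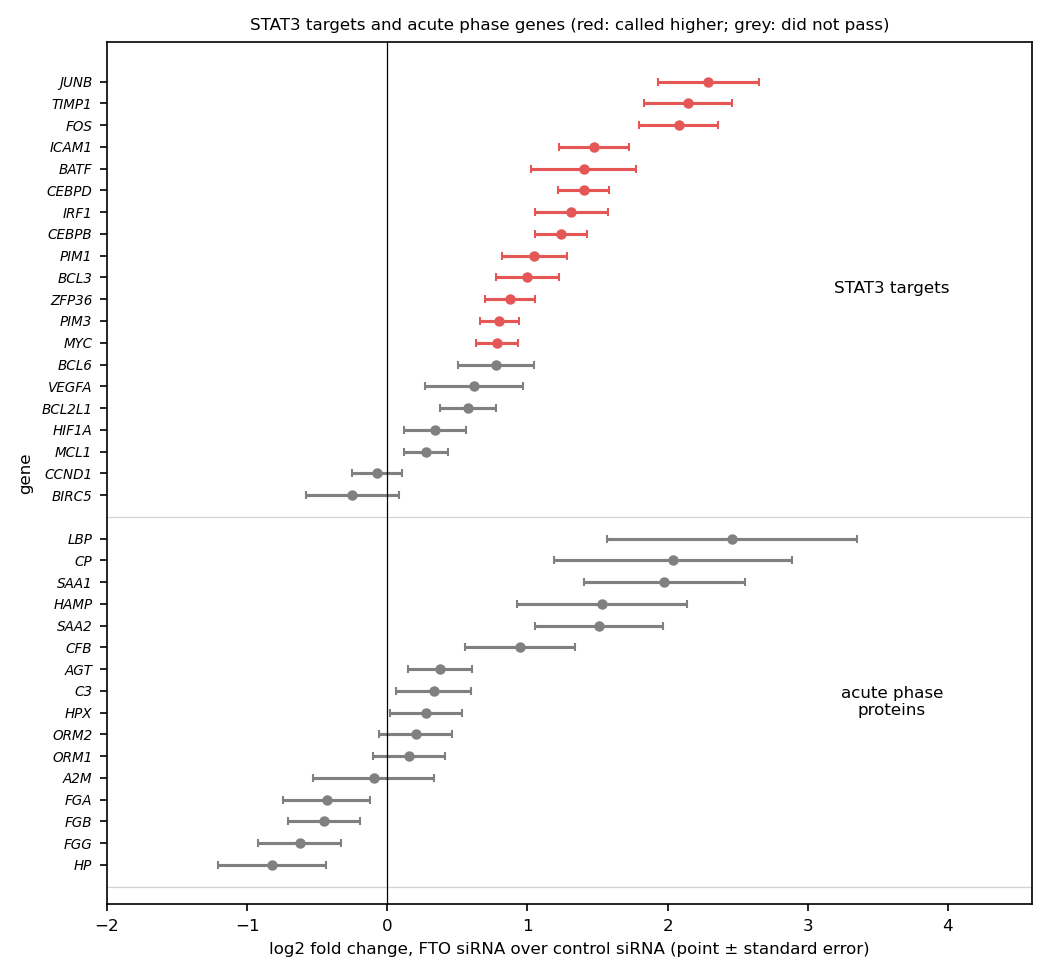
Log2 fold change with its standard error for the 20 STAT3 target genes and the 16 tested acute phase genes, in red where the gene passed the threshold. The targets spread from -0.25 to 2.29 with 13 in red, and the acute phase genes from -0.82 to 2.46 with none in red.

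Some markers of other cells were also higher in the FTO siRNA libraries, and their part in these results was not tested. Of 12 immune cell markers 7 could be tested and 5 rose (7.53% of all genes tested rose). Since PTPRC, CD3D, CD2 and NKG7 were below the filter in every control and entered only through the FTO siRNA libraries, nothing is read from that count. Their summed level was 51.7 to 102 CPM in the controls and 78.7 to 111 CPM after FTO siRNA, most of it LYZ, which also occurs outside immune cells. PTPRC, which all leukocytes carry, had 0, 1 and 1 counts in the controls and 20 in each FTO siRNA library, and the B cell marker MS4A1 had 0 in the controls and 1, 5 and 2 in FTO siRNA 1, 2 and 3. The constant-region genes of antibodies and T cell receptors summed to 0, 0 and 2 counts in the controls against 299, 346 and 336. Of 8 fibroblast markers 6 were tested and 3 rose (50%, against 7.53% of all genes tested), with sums of 99.8 to 190 CPM in the controls and 248 to 600.02 CPM after FTO siRNA, while the fibroblast genes DCN and THY1 had 0 counts in the controls and 6, 0 and 2 and 3, 0 and 3 counts after FTO siRNA. Among the fibroblast markers, TAGLN, a smooth muscle actin-binding protein, was at 464, 284 and 90.0 CPM in FTO siRNA 1, 2 and 3.

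Of 4 endothelial markers, 1 was tested and did not pass, the sums were 20.3 to 25.5 and 14.9 to 23.5 CPM, VWF had 0 counts in the controls and 1, 4 and 4 after FTO siRNA, and KDR had 0 in all 6 libraries. The 8 hepatocyte markers summed to 19433 to 27976 CPM in the controls and 12964 to 22546 CPM after FTO siRNA. All 8 had a log2 fold change below 0 (median -0.36), and 0 passed in edgeR's test. At an unadjusted p under 0.05, 2 were lower (11.5% of all genes tested). DESeq2 and limma-voom each called 1 lower (6.85% and 3.75% of all genes tested). Without FTO siRNA 3, edgeR's test called 5 lower (14.1%). In bulk RNA, fewer or more cells of a kind and less or more RNA per cell cannot be told apart, for the cytokine genes as for these markers.

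Over the 6 libraries, the log2 CPM of SOCS3 ran most closely with CSRNP1 (Pearson r = 0.998), HIP1R (0.998), KLF4 (0.996), PLCG2 (0.996) and TWF2 (0.996) among 12458 genes compared. The separation of the groups enters these values, and 871 genes had an r above 0.9. KLF4, a transcription factor, was at 2.47, 3.41 and 4.05 CPM in the controls and 16.9, 15.1 and 37.1 CPM in FTO siRNA 1, 2 and 3, so that the order of the libraries was the same as for SOCS3. Within the set of 10, SOCS3 ran closest with IL11 and LIF (0.992 and 0.991) and least with IL6ST (0.170). For STAT3 the closest were CD27-AS1 (0.995), FBXO42 (0.995), CDC14A (0.993), ZMPSTE24-DT (0.993) and VPS35L (0.986), and 219 genes were above 0.9. These are descriptions over 6 libraries that share their groups, with no test.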

How the data were processed

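The authors deposited raw counts per Ensembl gene, 1 table per library, from total RNA of HepG2 cells after control siRNA or FTO siRNA (3 libraries each, grouped by the labels). Per the submitters' processing notes, TopHat2 2.0.11, TopHat and HTSeq were used with hg19 (GRCh37); strandedness, multi-mapping rules, siRNA sequence and dose were not given in the sources used here. Symbols and exon lengths came from GENCODE 29 (56753 of 60483 identifiers matched). Counts were filtered with filterByExpr, TMM-scaled and tested with edgeR 4.0.16 in R 4.3.3 (glmQLFit, glmQLFTest; group only; two-sided; Benjamini-Hochberg over 15025 genes; threshold 0.05). The standard error is the log2 fold change over the square root of F. CPM are TMM-scaled; floors cover counting error only. The steps were tested on simulated data. Alternatives were other scalings and filters, DESeq2 1.42.0, limma-voom (limma 3.58.1), the replicate number as a block and each library left out.

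The genes and lists were chosen with earlier results of these data known. Named were FTO, the 10 genes, pathway genes past the threshold with JAK1, TYK2, OSMR, LIFR and SOCS1, the 6 response genes with the smallest p-values with CRP, SAA1, FGB and HP, and the 5 genes with the highest r for SOCS3 and STAT3 (average log2 CPM of at least 1). Others are marked or given as marker genes. Of the pathway genes, 2 are counted but not reported here by name. Exons of IL6, LIF, CLCF1, IL6ST and IL11RA overlap other genes.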

Additional observations from a re-analysis of the deposited data

How the results depend on the processing

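The log2 fold changes of IL6, IL11, LIF, EBI3, CLCF1, IL6R, IL11RA, STAT3 and SOCS3 stayed above 0 under all 14 alternatives; that of IL6ST was below 0 with limma-voom (-0.05), with the replicate block and without FTO siRNA 3 (-0.44). Over all genes tested, 1132 were higher and 575 lower, and DESeq2 called 1029 lower. With 1 library left out, the counts ranged from 236 to 2430 higher and from 94 to 2152 lower. The pathway genes called ranged from 0 to 9 higher and from 0 to 9 lower with 1 library left out; 1 was lower with no composition factors and 6 with DESeq2. The response genes called, STAT3 targets and acute phase genes together, ranged from 4 to 15 higher and from 0 to 4 lower with 1 library left out. The cause of these moves was not tested.

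The replicate numbers did not pair the libraries: deviations of same-numbered libraries correlated at -0.14, -0.06 and -0.25, and 0 of 6 libraries correlated best with its own number. With the replicate number as a block, 736 genes were higher (4.9% of all genes tested) and 305 lower (2.03%). The same 6 of the 10 genes passed, but nothing is read from this, since the 10 were chosen on this contrast. Under the block IL27RA lost its call (edgeR adjusted p = 0.0552) and SAA1 passed (0.0426). Depth limits IL6 and EBI3 in the controls, where each had 14 counts in all.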
